A study of Mus musculus with 4 samples.

Results

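Broad accessible stretches are places where open chromatin ran on for 3 kb or more. They were found by joining, in each library's peak list on chromosomes 1 to 19, neighbouring peaks whose next start lay at most 10 bp after the previous end. Joined peaks at least 3000 bp wide with a largest height of at most 10000 were kept. There were 1431 of them among 302876 joined peaks, with 319 in the intermediate, 246 in iPSC, 276 in ESC and 590 in MEF. As shares of the joined peaks of each list these were 0.456%, 0.300%, 0.382% and 0.748% in the same order. The stretches were chosen by their measured width and height, so both are given as a description.

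Accessible chromatin was mapped by ATAC-seq, where a transposase cuts open DNA and tags it for sequencing, with 1 library for each of 4 mouse cell populations. The intermediate came from cells on an OSKM (Oct4, Sox2, Klf4 and Myc) route to neural stem cells. They carried a Rosa26-TdTomato reporter from a B6 mother and a Col1a-OSKM transgene from a 129 father, the strain is given as B6/129, and no feeder cells were present. Doxycycline and 4-hydroxytamoxifen were present on days 1 to 9 beside 0.5 µM of a JAK1 inhibitor, and the cells were sorted for tdTomato, which a Nanog-driven Cre switches on and which therefore marks past activity of Nanog. The title of the sample gives day 9 and its source field day 6. The iPSC (induced pluripotent stem cells) and the MEF (mouse embryonic fibroblasts) both carry the label A12 (Mbd3 flox/-), and the ESC are v6.5 embryonic stem cells. Strain label and cell type thus cannot be told apart except between iPSC and MEF. Each library was made from 50000 cells with transposition for 30 min at 37 °C and 12 PCR cycles.

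The 4 lists on these chromosomes held 125858 to 155064 peaks, which joined into 69882 to 81885. The reads behind each list are unknown, so a longer list or wider stretches may go with deeper sequencing, which was not tested. Heights are whole numbers, not scaled to library size as far as the files show, and heights of different libraries do not measure differences in accessibility. With 1 library a group there was no replicate check and no test, and the Wilson 95% intervals given with shares cover counting error over stretches only. Of 10 fibroblast markers, 5 had a listed peak within 1 kb of a gene end in the intermediate, 6 in iPSC, 8 in ESC and 10 in MEF. Of 10 pluripotency markers the counts were 6 in the intermediate, 9 in iPSC, 8 in ESC and 2 in MEF, where 63.3%, 66.1%, 68.1% and 65.5% of all protein-coding genes had such a peak. Esrrb and Pou5f1 had no listed peak in the ESC, although both are defining genes of such cells, so absence from a list does not show that chromatin was closed. Of 5 endothelial and 6 myeloid markers, 1 and 2 had a peak in the intermediate, 3 and 2 in iPSC, 2 and 2 in ESC and 2 and 3 in MEF, and the level of such cells in each culture was not tested.

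Most open chromatin lies at short sites where nucleosomes give way to a promoter or an enhancer. At some genes, often highly transcribed ones or developmental regulators with CpG-rich starts, the open region reaches well into the gene and its flanks. Genes repeated in tandem, such as those for tRNAs, rRNAs and histones, can also form long open runs, and reads from near-identical copies cannot be placed with certainty.

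Promoter sequences of genes on which the results turn are printed first. They span 300 bases, 250 before the start site and 50 after it, 5′ to 3′, from RefSeq on GRCm38.p6, the assembly that mm10 names. Capitals mark the searched motifs on either strand, which were the GC box GGGCGG, the CCAAT box, the TATA box with the letters TATAAA, the AP-1 motif TGANTCA, the E-box written CACGTG, the octamer motif cut to ATGCAAA and the TEAD motif GGAATG. Jun was broad in all 4 libraries and Klf4 in 3. Pou5f1 was broad in iPSC alone, Pou3f3 and Sox21 in iPSC and ESC, Ccn1 in MEF and S100a6 in the intermediate.
Jun promoter, chr4:95052173-95052472, minus strand: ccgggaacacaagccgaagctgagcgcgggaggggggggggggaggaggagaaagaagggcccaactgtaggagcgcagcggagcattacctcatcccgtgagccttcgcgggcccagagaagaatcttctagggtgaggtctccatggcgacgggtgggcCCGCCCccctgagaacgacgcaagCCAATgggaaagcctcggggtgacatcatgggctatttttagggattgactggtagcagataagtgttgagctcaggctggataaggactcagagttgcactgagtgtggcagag
Klf4 promoter, chr4:55532426-55532725, minus strand: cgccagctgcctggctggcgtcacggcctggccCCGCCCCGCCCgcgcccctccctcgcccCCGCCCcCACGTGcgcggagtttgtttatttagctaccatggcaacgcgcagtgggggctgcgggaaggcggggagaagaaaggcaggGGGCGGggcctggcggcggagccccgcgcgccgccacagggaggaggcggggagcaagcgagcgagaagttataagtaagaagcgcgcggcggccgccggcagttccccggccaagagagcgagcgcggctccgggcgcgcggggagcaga
Pou5f1 promoter, chr17:35505782-35506081, plus strand: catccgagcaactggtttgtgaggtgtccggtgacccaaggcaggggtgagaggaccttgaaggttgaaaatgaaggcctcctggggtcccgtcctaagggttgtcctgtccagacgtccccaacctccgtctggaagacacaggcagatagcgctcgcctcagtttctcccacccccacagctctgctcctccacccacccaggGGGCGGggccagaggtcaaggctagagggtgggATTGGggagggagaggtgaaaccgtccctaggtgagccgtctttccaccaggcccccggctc
Pou3f3 promoter, chr1:42695518-42695817, plus strand: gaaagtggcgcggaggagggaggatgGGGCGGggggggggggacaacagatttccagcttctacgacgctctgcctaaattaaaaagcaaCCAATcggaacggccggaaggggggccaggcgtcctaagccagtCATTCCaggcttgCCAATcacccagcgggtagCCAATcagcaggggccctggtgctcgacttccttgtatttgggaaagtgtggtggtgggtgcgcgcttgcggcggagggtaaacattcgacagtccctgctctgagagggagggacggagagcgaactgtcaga
Sox21 promoter, chr14:118236981-118237280, minus strand: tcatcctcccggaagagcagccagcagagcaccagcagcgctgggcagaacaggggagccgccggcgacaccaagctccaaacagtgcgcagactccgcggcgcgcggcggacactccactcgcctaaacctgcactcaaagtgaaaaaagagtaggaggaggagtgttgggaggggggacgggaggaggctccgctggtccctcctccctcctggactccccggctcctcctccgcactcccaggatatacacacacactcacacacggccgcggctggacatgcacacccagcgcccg
Ccn1 promoter, chr3:145649936-145650235, minus strand: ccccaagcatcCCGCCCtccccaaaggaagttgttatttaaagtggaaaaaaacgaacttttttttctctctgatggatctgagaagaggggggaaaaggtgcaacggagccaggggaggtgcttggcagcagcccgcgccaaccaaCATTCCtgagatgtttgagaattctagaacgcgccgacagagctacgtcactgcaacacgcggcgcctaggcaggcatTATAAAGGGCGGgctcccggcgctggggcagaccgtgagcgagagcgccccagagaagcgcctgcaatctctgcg
S100a6 promoter, chr3:90612644-90612943, plus strand: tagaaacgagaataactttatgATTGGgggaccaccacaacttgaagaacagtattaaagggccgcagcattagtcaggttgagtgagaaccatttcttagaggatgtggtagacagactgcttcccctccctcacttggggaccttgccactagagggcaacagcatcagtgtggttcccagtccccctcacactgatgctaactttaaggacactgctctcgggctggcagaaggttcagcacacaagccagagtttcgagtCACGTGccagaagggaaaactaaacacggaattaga

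The promoter shown for Jun held 1 GC box and 1 CCAAT box, and the one for Pou3f3 held 3 CCAAT boxes, 1 GC box and 1 TEAD motif. Klf4 had 4 GC boxes and 1 E-box, with 40 CpG in its 300 bases. The Ccn1 promoter had 2 GC boxes, 1 TATA box that abuts one of them and 1 TEAD motif. Sox21 held none of the 7 motifs and S100a6 had 6 CpG, 1 CCAAT box and 1 E-box. Among all 20085 promoters, the share that held each motif was 47% for the GC box, 38.1% for the CCAAT box, 12.7% for the TATA box, 7.06% for the AP-1 motif, 7.89% for the E-box, 4.29% for the octamer letters and 13.4% for the TEAD motif. These matches describe letters in a window and say nothing of a bound factor.

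Mature microRNAs are printed for 6 genes with a broad stretch within 1 kb of an end, since microRNAs are short regulators that act through the bases of their seed. Capitals mark the seed, bases 2 to 8. No seed is shared among these 6, and Mir205, Mir99b, Mirlet7e and Mir125a were picked after their values were seen.
mmu-let-7e-5p, chr17:17830366-17830387, plus strand: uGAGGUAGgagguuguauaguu
mmu-miR-99b-5p, chr17:17830194-17830215, plus strand: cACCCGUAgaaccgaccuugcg
mmu-miR-125a-5p, chr17:17830817-17830840, plus strand: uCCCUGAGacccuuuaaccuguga
mmu-miR-21a-5p, chr11:86584120-86584141, minus strand: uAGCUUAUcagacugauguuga
mmu-miR-22-3p, chr11:75463772-75463793, plus strand: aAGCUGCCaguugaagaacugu
mmu-miR-205-5p, chr1:193507503-193507524, minus strand: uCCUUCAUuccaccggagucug

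The stretches were mostly just over the limit, with a thin tail of very wide ones. Median width was 3420 bp in the intermediate, 3445 bp in iPSC, 3390 bp in ESC and 3455 bp in MEF. Stretches of at least 5 kb numbered 32, 17, 16 and 65 in that order, and those of at least 10 kb numbered 4, 2, 1 and 3. At the limit, the narrowest member was 3000 bp wide in every library, and the widest joined peak outside was 2991 bp in the intermediate and iPSC and 2990 bp in ESC and MEF. In the first 100 bp above the limit lay 48, 38, 51 and 86 stretches, and in the last 100 bp below it 53, 45, 59 and 92 joined peaks, so a gene can leave or enter the set by a few bases. A stretch was made of a median of 7 sub-peaks in the intermediate, 6 in iPSC, 6 in ESC and 7 in MEF. Median height was 161 in the intermediate, 203 in iPSC, 139.5 in ESC and 143.5 in MEF, against 87, 90, 80 and 74 for the joined peaks of at least 1000 bp that fell short of the limit, called narrower peaks below. The stretches held 1.90% of all listed bases in the intermediate, 1.31% in iPSC, 1.53% in ESC and 3.07% in MEF. The height limit left out 2 joined peaks in the intermediate and 3 in each of the other libraries, among them one on chromosome 1 (24611211 to 24616600 in the intermediate) in every list.

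**Figure D1:**
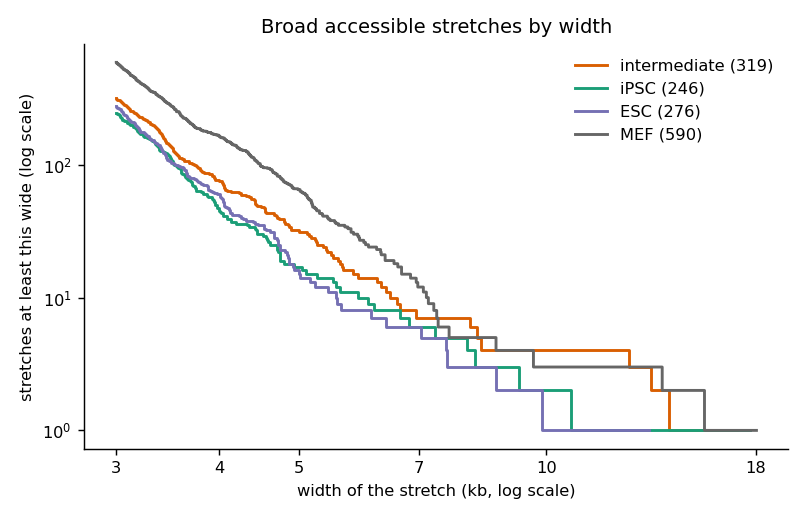
Number of broad stretches (y axis, log scale) at least as wide as the value on the x axis (kb, log scale) in each of the 4 libraries; the legend gives the number in all. The MEF line lies highest up to about 7 kb, with 65 stretches of at least 5 kb, and 4, 2, 1 and 3 stretches are at least 10 kb wide in the intermediate, iPSC, ESC and MEF.

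Broad stretches lay at gene ends more often than narrower peaks of the same lists. Of the stretches of the intermediate 67.1% (61.8 to 72.0) lay within 1 kb of an end of a protein-coding gene, against 38.9% of narrower peaks. The share was 65.0% (58.9 to 70.7) in iPSC against 38.4%, 76.4% (71.1 to 81.1) in ESC against 44.3%, and 72.9% (69.2 to 76.3) in MEF against 38.2%. A wide stretch reaches a gene end more easily, so the middle of the tallest sub-peak, which does not grow with width, was also placed. It lay within 1 kb of a start site in 37.9% (32.8 to 43.4) of stretches of the intermediate, 37.8% (32.0 to 44.0) in iPSC, 48.2% (42.4 to 54.1) in ESC and 49.5% (45.5 to 53.5) in MEF. For narrower peaks the values were 30.3%, 30.9%, 35.2% and 29.8%, below each of those intervals. No annotated gene end of any kind lay within 1 kb of 71 stretches of the intermediate, 51 of iPSC, 31 of ESC and 102 of MEF.

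Measured from the most upstream start site of the gene inside them, the stretches tended to reach further into the gene than upstream. Where a gene has several start sites, this choice of reference lengthens the downstream side, in stretches and narrower peaks alike. Among stretches over the start site of exactly 1 protein-coding gene, the median reach was 1367 bp upstream and 2267.5 bp downstream in the intermediate (128 stretches), 1491 and 2052 bp in iPSC (117), 1429 and 2040 bp in ESC (152) and 1372.5 and 2103 bp in MEF (312). The downstream side was the longer one in 68.8% (60.3 to 76.1) of these stretches in the intermediate, 62.4% (53.4 to 70.6) in iPSC, 61.2% (53.3 to 68.6) in ESC and 68.6% (63.2 to 73.5) in MEF. Narrower peaks leaned the same way, at 59.6%, 64.5%, 66.4% and 66.0%, and of the 4 intervals only that of the intermediate lies above the value of its narrower peaks. The tallest sub-peak stayed within 500 bp of the start in 56.2%, 51.3%, 65.8% and 62.2% of cases.

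**Figure D2:**
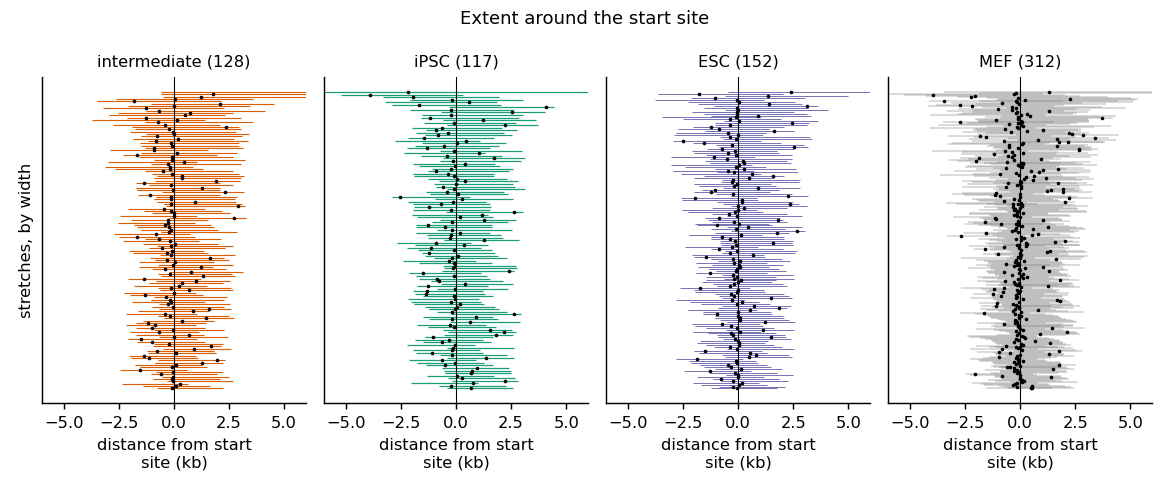
Each line is a broad stretch over the start site of 1 protein-coding gene, drawn from its upstream to its downstream limit. The x axis gives the distance in kb from the most upstream start site of the gene in the stretch. Downstream is to the right, and the axis is cut off at 6 kb on either side. Lines are sorted by width with the widest on top, and black points mark the middle of the tallest sub-peak. The panels hold 128, 117, 152 and 312 stretches, and the lines reach further to the right than to the left in each of them.

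In the intermediate a larger share of the genes touched by a stretch were touched at their far end, where transcription stops. Among genes with a known strand whose start or far end lay inside a stretch, the far end did so in 25.9% (20.5 to 32.2; 55 of 212) in the intermediate, 6.34% (3.37 to 11.6; 9 of 142) in iPSC, 13.4% (9.27 to 19.1; 25 of 186) in ESC and 13.2% (10.3 to 16.6; 58 of 441) in MEF. For narrower peaks the shares were 6.89%, 3.67%, 5.16% and 6.89%. Neighbouring genes can share 1 stretch, as 8 of these genes, all of the Ugt1a locus, did in the intermediate, so these genes are not independent. Genes whose start and far end both lay inside were short, with a median length of 1.45 kb in the intermediate, 2.84 kb in iPSC, 1.84 kb in ESC and 1.15 kb in MEF. Rpl38 and Rps15a, which encode ribosomal proteins, and Srebf2, a regulator of sterol synthesis, were touched at the far end alone in the intermediate, and Acta2 and Axl in MEF.

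Promoters under broad stretches resembled those under narrower peaks in composition. The median number of CpG per 300 bases was 22 in the intermediate, 25 in iPSC, 25 in ESC and 24 in MEF, against 23 under narrower peaks in each library and 2 or 3 where the start site had no listed peak. A GC box was found in 72.1% (65.1 to 78.1) of promoters under stretches in the intermediate, 73.3% (65.3 to 80.1) in iPSC, 72.7% (65.7 to 78.8) in ESC and 75.9% (71.5 to 79.8) in MEF. Under narrower peaks it was found in 72.2%, 72.8%, 71.7% and 71.4%. The AP-1 motif was present in 2.23% (0.872 to 5.6), 2.96% (1.16 to 7.37), 3.41% (1.57 to 7.24) and 6.2% (4.24 to 9.0) of promoters under stretches, and in 3.95%, 3.8%, 3.74% and 4.16% of those under narrower peaks. The MEF interval starts just above the MEF value for narrower peaks, and the other intervals hold theirs. Promoters that shared at least 50% of their 30-base words with another promoter made up 5.03%, 8.15%, 6.25% and 2.98% under stretches, against 1.43%, 1.43%, 1.36% and 1.41% under narrower peaks.

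Few stretches were broad in every library. The 4 lists merged into 1029 loci, of which 769 (74.7%) were broad in 1 library, 163 in 2, 70 in 3 and 27 (2.62%) in all 4. Loci broad in a single library numbered 165 in the intermediate, 116 in iPSC, 80 in ESC and 408 in MEF. Among pairs, 45 loci were broad in iPSC and ESC alone, 43 in ESC and MEF, 41 in the intermediate and MEF, 13 in the intermediate and iPSC, 12 in the intermediate and ESC, and 9 in iPSC and MEF. The share with a protein-coding gene end within 1 kb was 67.5% for loci broad in 1 library, 73.6% in 2, 81.4% in 3 and 85.2% in 4.

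**Figure D3:**
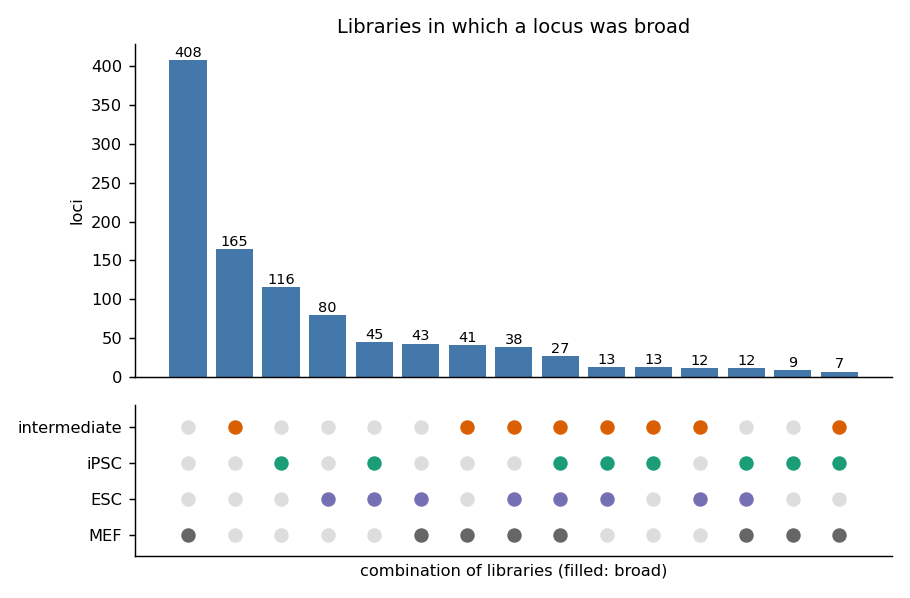
Number of loci (bars, y axis) broad in each combination of libraries, which the filled dots under a bar name. The bar for MEF alone holds 408 loci, the 3 other single-library bars 165, 116 and 80, and the bar for all 4 libraries 27.

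Loci broad in 1 library alone mostly held a peak of any given other library, least often those broad in iPSC. Of 165 loci broad in the intermediate alone, 84.8% held a peak of iPSC, 87.9% of ESC and 83.0% of MEF, with a median widest peak of 1290, 1690 and 1680 bp. Of the 408 broad in MEF alone, 87.3% held a peak of the intermediate, 89.5% of iPSC and 92.4% of ESC. The 116 broad in iPSC alone held a peak of the intermediate in 58.6% of cases, of ESC in 82.8% and of MEF in 56.9%. Loci without any peak in the other 3 lists numbered 9 in the intermediate, 20 in iPSC, 1 in ESC and 19 in MEF.

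Stretches of 1 library overlapped those of another in 9.49% to 45.3% of cases. Of the stretches of the intermediate 36.4% (31.3 to 41.8) overlapped one of MEF, 28.2% (23.6 to 33.4) one of ESC and 18.8% (14.9 to 23.5) one of iPSC. From the other side, 19.7% of MEF, 33.3% of ESC and 26.0% of iPSC stretches overlapped one of the intermediate. Of iPSC stretches 40.2% (34.3 to 46.5) overlapped one of ESC and 22.8% (18 to 28.4) one of MEF, and from the other side it was 35.9% of ESC and 9.49% of MEF. Of ESC stretches 45.3% (39.5 to 51.2) overlapped one of MEF, and 21% of MEF stretches one of ESC. With the 246 widest of each list, the share of intermediate stretches that overlapped one of MEF, ESC or iPSC was 27.2%, 26.8% and 22.0%, and the share of ESC stretches that overlapped one of MEF was 28.5%.

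Over all heights, the tallest sub-peak of broad stretches was listed in MEF more often than that of narrower peaks. The middle of the tallest sub-peak lay in a peak of MEF for 80.9% (76.2 to 84.8) of intermediate stretches, against 53.8% of its narrower peaks. For ESC stretches it lay in a peak of MEF in 86.2% (81.7 to 89.8) against 56.8%, and for iPSC stretches in 65.4% (59.3 to 71.1) against 48.9%. Tall peaks are listed elsewhere more often, so both classes were also compared over the middle 50% of the heights of broad stretches. There the shares in MEF were 82.6% (76.0 to 87.7) against 61.6% for the intermediate, 90.0% (83.9 to 93.9) against 75.4% for ESC, and 70.2% (61.6 to 77.5) against 67.2% for iPSC, whose interval holds the value of its narrower peaks. MEF stretches lay in a peak of the intermediate in 89.8% (85.9 to 92.8) of cases against 72.1% in that height range. For iPSC stretches in the intermediate the share in that height range was 77.4% (69.3 to 83.9) against 82.0% for narrower peaks. Heights were not matched within the range, so the classes can still differ in height there.

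A block of near-identical genes on chromosome 14 sets iPSC apart. Of the 246 iPSC stretches 43 (17.5%) lay on chromosome 14, which holds 4.56% of the joined iPSC peaks, and 33 of them lay between 3119771 and 7660870. In that interval ESC had 6 broad stretches and the intermediate and MEF had 0, with 188 joined peaks in iPSC, 40 in the intermediate, 76 in ESC and 31 in MEF. The genes there are mostly copies known by Gm numbers, and of 29 promoters 18 shared at least 50% of their words with another promoter. Other blocks of repeated genes lay on chromosomes 8 and 6. The one on chromosome 8, between 19696961 and 20587720, held 9 stretches of the intermediate, 9 of iPSC, 7 of ESC and 1 of MEF. The Rn4.5s block on chromosome 6, which holds copies of a small RNA gene, held 0 of the intermediate, 1 of iPSC, 10 of ESC and 3 of MEF between 47652721 and 47767070. These intervals were picked as the 5 Mb windows with the most stretches of iPSC (chromosome 14), the intermediate (8) and ESC (6). A high count of that library there follows from the choice. In windows around the 3 blocks lay 10 stretches (3.13%) of the intermediate, 44 (17.9%) of iPSC, 24 (8.70%) of ESC and 6 (1.02%) of MEF. Without them the share of iPSC stretches with the tallest sub-peak in a MEF peak was 75.7%, and that of ESC stretches 90.9%. Reads of such copies cannot be assigned to 1 copy with certainty, and how the authors placed them is not given in the sources used here.

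Loci broad in all 4 libraries, 27 in number, held genes of varied roles. Jun, an AP-1 transcription factor of the immediate early response, was 4810 bp wide in the intermediate, 4710 in iPSC, 4660 in ESC and 5120 in MEF (chromosome 4, 95049151 to 95054330), with heights of 313, 564, 266 and 363. It was the only one of the 20 listed immediate early genes that was broad in all 4. Efna5, a membrane-bound ligand of Eph receptors, was 5650 bp wide in the intermediate, 5260 in iPSC, 5630 in ESC and 4640 in MEF. Jag1, a Notch ligand, varied less than Efna5, with 4500 bp in the intermediate, 4430 in iPSC, 4660 in ESC and 4710 in MEF. Mex3b, which encodes an RNA-binding protein, was 3500 bp wide in the intermediate, 3920 in iPSC, 5160 in ESC and 5040 in MEF. Klf10 and Klf13, zinc finger factors, Bhlhe40, a circadian and stress-responsive repressor, Cdk6, a cell cycle kinase, Ddit3, a factor of the stress response, and Kmt2e, a chromatin regulator, ranged from 3150 bp (Klf10 in iPSC) to 5500 bp (Klf13 in the intermediate). Other loci in the set stood near RNA genes. The run of tRNA genes beside Fcgr3 on chromosome 1 (171063301 to 171084870) had a widest stretch of 17080 bp in the intermediate, 3520 in iPSC, 4850 in ESC and 13840 in MEF. The locus of Spaca6 on chromosome 17, which holds Mir99b, Mirlet7e and Mir125a in its downstream part, is taken up with the microRNAs.

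The width at a gene is that of the widest joined peak within 1 kb of either end. Counted so, 283 of 20665 protein-coding genes (1.37%) had a broad stretch within 1 kb of an end in the intermediate, 176 (0.852%) in iPSC, 245 (1.19%) in ESC and 553 (2.68%) in MEF. Between the intermediate and MEF, 157 genes (0.760%) were broad in the intermediate alone, 427 (2.07%) in MEF alone and 126 in both. For iPSC and MEF the counts were 126 (0.610%), 503 (2.43%) and 50, and for ESC and MEF 120 (0.581%), 428 (2.07%) and 125. Between the intermediate and ESC, 195 genes (0.944%) were broad in the intermediate alone, 157 (0.760%) in ESC alone and 88 in both. Between the intermediate and iPSC, 233 (1.13%) were broad in the intermediate alone, 126 (0.610%) in iPSC alone and 50 in both. Between iPSC and ESC, 101 (0.489%) were broad in iPSC alone, 170 (0.823%) in ESC alone and 75 in both. Genes broad on 1 side mostly had a narrower peak on the other, and of the 157 broad in the intermediate and not in MEF 8 had no listed peak in MEF. Their median width in MEF, counting those 8 as 0, was 2070 bp. The pairs share libraries, so these counts are not independent of each other.

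A minority of the listed neural genes, mostly transcription factors, were broad in iPSC, ESC or MEF. Of 22 neural genes 0 were broad in the intermediate, 4 in iPSC, 5 in ESC and 3 in MEF, where 1.37%, 0.852%, 1.19% and 2.68% of all protein-coding genes were. The iPSC genes were Sox21, Pou3f2, Pou3f3 and Zic2, the ESC genes included Sox1, Sox21, Pou3f3 and Zic2, and the MEF genes Nes, Hes1 and Irx3. Pou3f3, a POU factor of the forebrain, was 1610 bp wide in the intermediate, 3720 in iPSC, 3390 in ESC and 950 in MEF, with heights of 165, 209, 197 and 102. It was over the limit in iPSC and ESC and well under it in the others. Sox21, an HMG-box factor of neural progenitors, was 1450 bp wide in the intermediate, 3310 in iPSC, 3290 in ESC and 2850 in MEF, so MEF fell short of the limit by little. Zic2, a zinc finger factor of the early neural plate, was 1960 bp wide in the intermediate, 3500 in iPSC, 3730 in ESC and 2700 in MEF. Sox1, the earliest marker of neuroectoderm, was 1120 bp wide in the intermediate, 1260 in iPSC, 3310 in ESC, and had no listed peak in MEF. Nes, an intermediate filament protein of neural progenitors, was 1620 bp wide in the intermediate, 930 in iPSC, 1360 in ESC and 3420 in MEF.

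**Figure D4:**
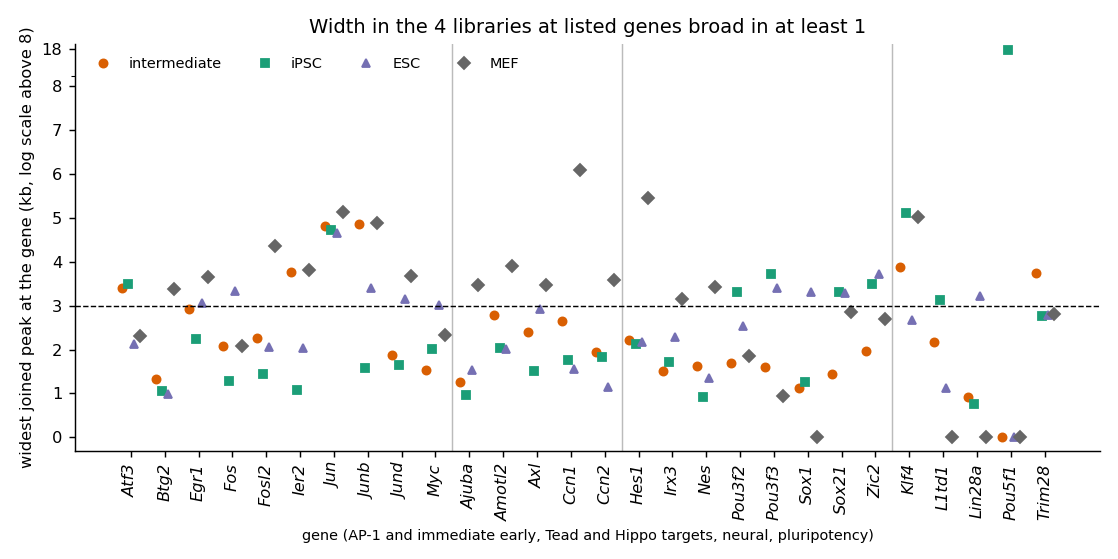
Width of the widest joined peak within 1 kb of a gene end (y axis, kb, log scale above 8 kb, 0 where no peak is listed) in the 4 libraries, for genes of 4 lists that were broad in at least 1; the dashed line marks 3 kb. Jun lies above the line in all 4 libraries, the Tead and Hippo targets in MEF alone, and Pou5f1 in iPSC at 17700 bp with no listed peak elsewhere.

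Other loci shared the pattern of Pou3f3. Among the 45 loci broad in iPSC and ESC alone were those of Foxc1 and Foxq1, forkhead factors, Prox1, a homeobox factor of several organs, Fgf10, a growth factor of budding organs, Nfib, a factor of lung and brain development, and Tcf7l1, the repressor of Wnt targets in pluripotent cells; these were picked after their values were seen. Prox1 was 1120 bp wide in the intermediate, 3360 in iPSC, 3030 in ESC and 1210 in MEF. Foxq1 was 660 bp wide in the intermediate, 3180 in iPSC, 3120 in ESC and 820 in MEF. Fgf10 had no listed peak in the intermediate and was 3180 bp wide in iPSC, 3010 in ESC and 1620 in MEF. Metabolic genes with the pattern were Upp1, the uridine phosphorylase (1670 bp in the intermediate, 4940 in iPSC, 4120 in ESC, 1660 in MEF), and Ppargc1a, a coactivator of mitochondrial genes (1410, 4450, 4020 and 1530 bp in that order). The imprinted gene Peg3 was 2361 bp wide in the intermediate, 4590 in iPSC, 4060 in ESC and 2211 in MEF. At these loci the choice itself puts iPSC and ESC above the limit and the other libraries below it. Dbp, a circadian factor, Klf12, a repressor of the Krüppel-like family, and Fzd5, a Wnt receptor, were broad in the intermediate too. Dbp was 4450 bp wide in the intermediate, 4560 in iPSC, 4010 in ESC and 2690 in MEF, and Klf12 was 4050, 3930, 3370 and 1760 bp wide in that order.

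Some of the 80 loci broad in ESC alone are given by their genes, and Nkx3-2 and Tlx3 were picked after their values were seen. The widest of the 80 were not at such factors. They were 13320 bp at Gm40369, in the Rn4.5s block, and 7580 bp at 6.709 kb from Tmem267. Sox9, a factor of cartilage and many progenitors, was 1160 bp wide in the intermediate, 1000 in iPSC, 4860 in ESC and 2760 in MEF. Nkx3-2 and Tlx3, homeobox factors of skeleton and neurons, were each 4040 bp wide in ESC. Nkx3-2 measured 1110 bp in the intermediate, 1800 in iPSC and 780 in MEF, and Tlx3 measured 1230, 1320 and 970 bp. Eomes, a T-box factor of early mesoderm and trophoblast, was the only one of 24 mesoderm, endoderm and trophoblast genes that was broad, with 1300 bp in the intermediate, 2050 in iPSC, 3600 in ESC and 1250 in MEF. Twist1, a mesenchymal factor, was broad in ESC at 3500 bp and just under the limit in MEF at 2960 bp, with 2110 bp in the intermediate and 2500 in iPSC.

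Of 35 pluripotency genes 2 were broad in the intermediate (Klf4 and Trim28), 3 in iPSC (Klf4, L1td1 and Pou5f1), 1 in ESC (Lin28a) and 1 in MEF (Klf4). These are 5.71%, 8.57%, 2.86% and 2.86% of the list, against 1.37%, 0.852%, 1.19% and 2.68% of all protein-coding genes. Klf4, a Krüppel-like factor and member of OSKM, was 3870 bp wide in the intermediate, 5110 in iPSC, 2680 in ESC and 5020 in MEF, with heights of 150, 222, 197 and 141. Lin28a, an inhibitor of let-7 processing, was 920 bp wide in the intermediate, 760 in iPSC, 3210 in ESC, and had no listed peak in MEF. L1td1, an RNA-binding protein of pluripotent cells, was 2180 bp wide in the intermediate, 3120 in iPSC, 1121 in ESC, and again had none in MEF. The widest iPSC stretch covered Pou5f1, which encodes Oct4, from 35497551 to 35515250 on chromosome 17, with a width of 17700 bp, a height of 1330, and no listed peak in the intermediate, ESC or MEF. It ran from upstream of the gene to past its end, and took in the far end of the neighbour Tcf19.

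Among fibroblast, Tead and Hippo target genes the counts were highest in MEF, as they were over all genes (1.37% in the intermediate, 0.852% in iPSC, 1.19% in ESC and 2.68% in MEF). Of 35 fibroblast and mesenchymal genes 0 were broad in the intermediate, 0 in iPSC, 1 in ESC and 4 in MEF (Col1a1, Col5a1, Vim and Acta2; 11.4%). Of 14 targets of Tead factors and the Hippo pathway, which reads cell density and tension, 0 were broad in the intermediate, iPSC and ESC and 5 (35.7%) in MEF. With the 246 widest stretches of each list the MEF counts were 3 of both lists. At a limit of 2000 bp the targets numbered 8 in the intermediate, 3 in iPSC, 5 in ESC and 8 in MEF. Ccn1, a matrix protein and classical Yap target, was 2640 bp wide in the intermediate, 1760 in iPSC, 1560 in ESC and 6080 in MEF, with heights of 144, 221, 155 and 139. Ccn2, its relative, was 1940 bp wide in the intermediate, 1830 in iPSC, 1150 in ESC and 3591 in MEF. Amotl2, Ajuba and Axl measured 3910, 3470 and 3460 bp in MEF, and at most 2790, 1530 and 2920 bp in any other library. Col1a1, the chain of type I collagen whose locus carries the OSKM transgene of the intermediate, was 2830 bp wide in the intermediate, without a listed peak in iPSC, 1520 bp in ESC and 4410 bp in MEF, and under the MEF stretch itself the widest peak of the intermediate was 600 bp. Acta2, smooth muscle actin, had no listed peak in the intermediate or iPSC, 700 bp in ESC and 3550 bp in MEF. All 10 fibroblast markers had a peak in MEF, but of those 10 only Col1a1 was broad.

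Of the 408 loci broad in MEF alone, some of the widest are given by their genes. Flnc, an actin crosslinker of muscle, had none in the intermediate, 960 bp in iPSC, 2851 in ESC and 6840 in MEF. A stretch of 6670 bp lay inside Thbs1, the matrix protein thrombospondin, in MEF, with no listed peak in the other libraries. Piezo1, a mechanically gated channel, was 1780 bp wide in the intermediate, 1100 in iPSC, 1700 in ESC and 6370 in MEF. Gadd45b, a stress sensor, was 2830 bp wide in the intermediate, 960 in iPSC, 2460 in ESC and 6290 in MEF. It lies between 78573961 and 81497210 on chromosome 10, where Midn, Mbd3, Klf16 and Cirbp were broad in MEF as well. That interval was picked as the 5 Mb window with the most MEF stretches, so a high MEF count there follows from the choice. Stretches numbered 7 in the intermediate, 0 in iPSC, 2 in ESC and 21 in MEF. Joined peaks there numbered 305, 194, 284 and 366 in the same order. Mbd3, a subunit of the NuRD complex and the gene named in the strain label of iPSC and MEF, was 1930 bp wide in the intermediate, 1820 in iPSC, 2120 in ESC and 3430 in MEF. The Hox genes, homeobox factors of patterning, had 3 of 39 members broad, all in MEF, among them Hoxa3 at 3550 bp.

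Some genes of the immediate early response were broad in each library, in differing sets. Of 20 genes 4 were broad in the intermediate, 2 in iPSC, 6 in ESC and 7 in MEF. Over all protein-coding genes the shares were 1.37% in the intermediate, 0.852% in iPSC, 1.19% in ESC and 2.68% in MEF. Junb, a partner of Fos in AP-1, was 4850 bp wide in the intermediate, 1590 in iPSC, 3410 in ESC and 4881 in MEF. Ier2, a nuclear protein induced by serum, was 3770 bp wide in the intermediate, 1070 in iPSC, 2040 in ESC and 3800 in MEF. At both genes the intermediate and MEF were wide and iPSC narrow. Fos was broad in ESC alone (2090 bp in the intermediate, 1290 in iPSC, 3330 in ESC, 2090 in MEF), as was Myc at 3020 bp. Atf3, a stress-induced factor, was broad in the intermediate at 3401 bp and in iPSC at 3500 bp, against 2120 bp in ESC and 2310 bp in MEF. Fosl2 was 2270 bp wide in the intermediate, 1450 in iPSC, 2060 in ESC and 4360 in MEF, where alone it was broad.

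Of 19 feedback genes of growth factor, TGF-beta and Notch signalling 4 (21.1%) were broad in the intermediate, 2 (10.5%) in iPSC, 0 in ESC and 6 (31.6%) in MEF, against 1.37%, 0.852%, 1.19% and 2.68% of all protein-coding genes. At 2000 bp the counts were 8, 7, 8 and 15. Spry2, an inhibitor of receptor tyrosine kinase signalling, was 4860 bp wide in the intermediate, 3551 in iPSC, 2800 in ESC and 4710 in MEF. Dusp6, the phosphatase of ERK, was 3430 bp wide in the intermediate, 3020 in iPSC, 1710 in ESC and 3590 in MEF, with heights of 566, 432, 288 and 304. ESC was the narrowest at both. Hes1, a repressor driven by Notch, was 2210 bp wide in the intermediate, 2120 in iPSC, 2180 in ESC and 5460 in MEF. Id2, an inhibitor of helix-loop-helix factors, was 1490 bp wide in the intermediate, 1330 in iPSC, 1570 in ESC and 3200 in MEF.

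Of 16 housekeeping genes 6 (37.5%) were broad in the intermediate, 0 in iPSC, 1 (6.25%) in ESC and 4 (25%) in MEF, where over all protein-coding genes it was 1.37%, 0.852%, 1.19% and 2.68%. Differences between libraries were not tested for this or any other list. Within 1 kb of Eef1a1, a translation elongation factor, the widest peak was 4550 bp in the intermediate, 2090 in iPSC, 2180 in ESC and 2750 in MEF. The 4550 bp stretch covered the far end of the neighbour Mto1, and Eef1a1 was counted through the 1 kb window. Hspa8 was likewise counted in the intermediate through a stretch 0.819 kb away. Eef2, another elongation factor, was 4250 bp wide in the intermediate, 1150 in iPSC, 1330 in ESC and 1740 in MEF. Eef1a1 and Eef2 were counted as broad in the intermediate alone. Gapdh, a glycolytic enzyme, was broad in 3 libraries (4550 bp in the intermediate, 2621 in iPSC, 3060 in ESC, 4150 in MEF). Actb, the cytoskeletal actin, was 3920 bp wide in the intermediate, 1940 in iPSC, 2210 in ESC and 5180 in MEF. Of 80 ribosomal protein genes 4 (5%) were broad in the intermediate, 1 (1.25%) in iPSC, 0 in ESC and 2 (2.5%) in MEF. The shares in iPSC and MEF were near those of all genes. The stretches counted for Rpl36 and Rpl38 in the intermediate were 4430 and 4030 bp wide and belonged mainly to neighbours. The former covered the far end of Lonp1. The latter covered the start site of Ttyh2 and touched Rpl38 at its far end. Of 67 core histone genes 10 (14.9%) were broad in the intermediate, 0 in iPSC, 8 (11.9%) in ESC and 10 (14.9%) in MEF. These lie in arrays where 1 stretch covers several genes, such as H2ac23, H2bc23 and H4c17 with 3420 bp in the intermediate, 1330 in iPSC, 3760 in ESC and 3170 in MEF. Genes with near-identical copies can share reads, so the histone and ribosomal counts are uncertain. Protein-coding genes with a stretch had a median length of 12.6 kb in the intermediate, 27.1 in iPSC, 17.3 in ESC and 14.5 in MEF, against 22.4, 23.3, 22.6 and 22.5 kb for genes with a narrower peak.

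**Figure D5:**
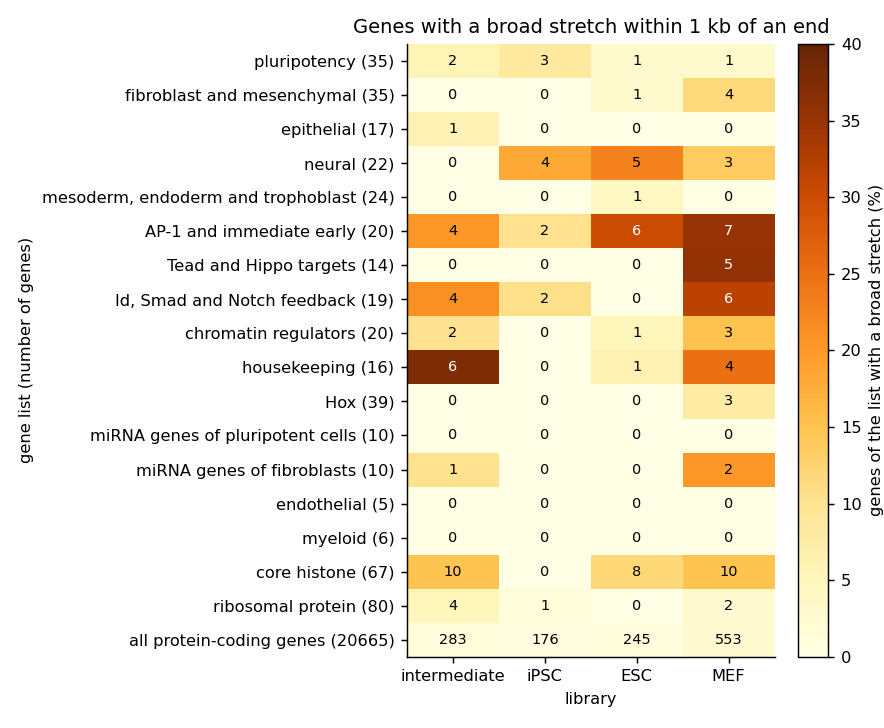
Genes of each list with a broad stretch within 1 kb of an end, as a number in each cell and as a percent of the list by colour; rows are the lists with their number of genes, columns the 4 libraries, and the bottom row all 20665 protein-coding genes. Housekeeping genes reach 6 of 16 in the intermediate, Tead and Hippo targets 5 of 14 in MEF, and neural genes 5 of 22 in ESC.

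Of the 165 loci broad in the intermediate alone, a few are given by their genes, with no theme read from them. S100a6, a calcium-binding protein, lay under 5400 bp in the intermediate (chromosome 3, 90611641 to 90617040), where the widest peak was 1190 bp in iPSC, 1360 in ESC and 2470 in MEF. Tmsb10, which binds actin monomers, was 3950 bp wide in the intermediate, 1560 in iPSC, 1990 in ESC and 1520 in MEF. Crb3, a polarity protein of epithelia and the only broad gene among 17 epithelial ones, lay under 3520 bp in the intermediate, where the widest peak was 2320 bp in iPSC, 2210 in ESC and 1760 in MEF. The widest was a stretch of 12600 bp over the end of Mroh2a on chromosome 1 (88254411 to 88267010), against 1430 bp in iPSC, 1460 in ESC and none in MEF. Its height of 144 is below the median of 161 for stretches of the intermediate, so it is long and not tall. It continues a run of stretches over the Ugt1a genes, enzymes that conjugate bile pigments and drugs. The widest joined peak there was 13430 bp in the intermediate, 760 in iPSC, 640 in ESC and 4400 in MEF. The run was shared with MEF, whose peaks covered 11935 bp of the Ugt1a locus, against 13214 bp in the intermediate. MEF also had a stretch of 5690 bp inside Mroh2a (88236271 to 88241960), where the other libraries had no listed peak. At Hjurp, next to Mroh2a, the intermediate and MEF were both broad, at 6230 and 6300 bp.

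Broad stretches at noncoding RNA genes differed by class. Of 391 tRNA genes 35 (8.95%) had one in the intermediate, 10 (2.56%) in iPSC, 31 (7.93%) in ESC and 49 (12.5%) in MEF, and these genes lay in 10, 2, 8 and 13 stretches. Of 1136 microRNA genes 12 (1.06%), 7 (0.616%), 7 (0.616%) and 20 (1.76%) had one. Mir21a, whose mature form is printed above and which is abundant in fibroblasts, had no listed peak within 1 kb in the intermediate, iPSC or ESC and a stretch of 4710 bp, 83 high, in MEF. Elsewhere under that stretch the intermediate had a peak of 840 bp. Mir22 was 4030 bp wide in the intermediate, 1780 in iPSC, 2590 in ESC and 5790 in MEF. Mir205, a microRNA known from epithelia, lay under a stretch of 3550 bp, 221 high, in the intermediate (chromosome 1, 193507331 to 193510880), with 1080 bp in iPSC, 800 in ESC and none in MEF. Of 10 microRNA genes of pluripotent cells 0 were broad in any library.

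At the Mir99b, Mirlet7e and Mir125a locus on chromosome 17 (17825531 to 17831300) the stretch itself differed in reach. Its width was 3090 bp in the intermediate, 5550 in iPSC, 3660 in ESC and 4211 in MEF, with heights of 179, 334, 169 and 259. The microRNA genes begin at 17830188 and lie in its downstream part. In iPSC the stretch came within 1 kb of all 3 genes, in ESC and MEF of Mir99b and Mirlet7e, and in the intermediate of none, where no peak at all was listed within 1 kb of them. Let-7 and miR-125 are known to restrain Lin28a, the gene described above that was broad in ESC.

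Long noncoding RNA genes held some of the widest stretches. Neat1, the scaffold RNA of nuclear paraspeckles, lay under 15580 bp in MEF (chromosome 19, 5835231 to 5850810), and the other libraries had 4890 bp (intermediate), 1920 bp (iPSC) and 3070 bp (ESC). The neighbour Malat1, another abundant nuclear RNA, was 2590 bp wide in the intermediate, 1290 in iPSC, 1990 in ESC and 3090 in MEF. Snhg8 and Gas5, hosts of small nucleolar RNAs, were broad in the intermediate alone, at 4060 and 3450 bp, against at most 1980 and 2260 bp elsewhere. The rRNA locus on chromosome 17 was 6460 bp wide in the intermediate, 6650 in iPSC, 6380 in ESC and 6290 in MEF, with heights of 3930, 3314, 7202 and 15595, so the height limit removed it in MEF alone. The genes of this paragraph were picked after their values were seen.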

How the data were processed

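ATAC-seq peak lists of 4 libraries, 1 per group, were used as deposited. Per the file headers each row gives a peak's start, end, summit and height, and the deposited height is a whole-number signal that is never below 5, with no scaling stated. Tools named in the submitters' processing notes are MACS 1.4.2-1, Bowtie2, Picard and CASAVA 1.8.2, with the build mm10 and no roles, and the program that divided stretches into sub-peaks is not given in the sources used here. Neighbouring peaks were exactly 10 bp apart in 36.4% (iPSC) to 49.1% (MEF) of cases. Read totals are unknown, so stretch counts and widths may depend on depth.

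Peaks on chromosomes 1 to 19 were joined, and stretches of different libraries sharing at least 1 bp were merged into loci. Gene ends came from RefSeq GRCm38.p6 (20665 protein-coding genes, 16457 of them with promoter sequence and strand). The scripts ran in Python 3.11.15 with pandas 2.3.3, numpy 2.4.6, scipy 1.17.1 and matplotlib 3.10.9, and were tested on simulated data with 200 planted stretches per list. No test between groups was possible.

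The stretches, gene lists and named-gene rule were chosen with earlier results of these data known. Named genes were the 10 widest stretches per library, the 10 with the largest smallest width among loci broad in all 4, the 5 widest broad in 1 library alone, the 10 widest of iPSC and ESC without MEF and of the opposite, and listed genes with a stretch; others are said to be picked after their values were seen, as were some loci given for their pattern. Results for some genes that the rule names are not reported here.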

Additional observations from a re-analysis of the deposited data

How the results depend on the processing

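No paired analysis was possible because each group has 1 library. Depth is unknown, the limit of 3000 bp cuts a continuous range of widths, and counting intervals do not measure variation between cultures. For intermediate, iPSC, ESC and MEF in that order, a width of at least 2000 bp gave 2203, 1881, 2418 and 3279 stretches and 1690, 1361, 1962 and 2635 protein-coding genes, at least 4000 bp gave 77, 47, 60 and 167 stretches and 78, 29, 49 and 169 genes, and the taller 50% of peaks gave 72, 78, 58 and 154 stretches. MEF kept the largest count in each. Equal lists gave 244 genes in MEF.

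The share at a gene end was 61.1% (intermediate), 68.9% (ESC) and 66.8% (MEF) at 2000 bp, 53.2% (iPSC), 65.0% (ESC) and 76.6% (MEF) at 4000 bp, and in MEF 76.4% with equal lists and 69.2% with the end inside the stretch. The share overlapping a MEF stretch was 44.0% (intermediate) and 41.9% (iPSC) at 2000 bp, 42.9% (intermediate) at 4000 bp, 27.2% (intermediate), 13.4% (iPSC) and 28.5% (ESC) with equal lists, and 28.8% (iPSC) after joining at 50 bp. At 2000 bp, intermediate stretches overlapped ESC in 42.4% and iPSC in 29.2%, and iPSC overlapped ESC in 58.5%. The tallest sub-peak was listed in MEF for 75.4% (intermediate), 72.2% (iPSC) and 80.4% (ESC) at 2000 bp and 76.7% (ESC) at 4000 bp, and in ESC for 93.9% (iPSC) at 2000 bp and 78.7% at 4000 bp. Leaving out the blocks on chromosomes 14, 8 and 6, chosen after seeing the data, gave 75.7% (iPSC) and 90.9% (ESC) in MEF. The other shares of pairs with the tested library as base stayed inside their intervals, and of 2772 calls of listed genes under these alternatives 140 were lost and 94 gained. Counts in the gene lists, 68 per alternative, moved by over 1.5 times in 52 cases at 2000 bp, 27 at 4000 bp and at most 7 under any other alternative. For intermediate, iPSC, ESC and MEF in that order, the neural list gave 3, 9, 11 and 8 genes at 2000 bp and 0, 0, 0 and 1 at 4000 bp, housekeeping 9, 4, 6 and 8 and then 3, 0, 0 and 2, Tead and Hippo targets 8, 3, 5 and 8 and then 0, 0, 0 and 1. The immediate early list gave 10, 4, 11 and 14 and then 2, 1, 1 and 3 genes, pluripotency 8, 7, 8 and 7 and then 0, 2, 0 and 1, fibroblast and mesenchymal 3, 6, 4 and 12 and then 0, 0, 0 and 3. Feedback genes gave 8, 7, 8 and 15 and then 1, 0, 0 and 3, ribosomal 16, 1, 7 and 12 and then 2, 0, 0 and 0, and core histone 35, 9, 23 and 24 and then 2, 0, 0 and 2. With equal lists core histone in MEF gave 2 and neural in MEF 1. The cause of these shifts was not tested beyond the change of limit itself.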
